A study of Mus musculus with 24 samples.

Results

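Hox genes encode homeodomain transcription factors that give cells their position along the body axis. In the mouse they lie in 4 clusters, named A to D, on 4 chromosomes, and within each cluster the genes are ordered by paralog group, numbered from 1 to 13. Genes with low numbers are used first and farthest towards the head, genes with high numbers later and towards the tail, and fibroblasts and adipose stromal cells are known to keep a combination of Hox genes that reflects where in the body they came from. Transcripts of all protein-coding genes of these clusters were followed here in cells of a brown and a white fat depot. The members were taken by symbol, as Hox followed by a cluster letter from a to d and a number, which gave 40 annotated genes with 39 symbols out of 37310 genes in the tables. Cluster A held 12 of them (Hoxa3 was annotated as 2 genes), cluster B 10, cluster C 9 and cluster D 9.

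The cells were stromal vascular cells, that is the non-fat cells released by collagenase, taken from C57BL/6 mice aged 6 weeks, either from white fat of the groin (inguinal, WAT) or from brown fat between the shoulder blades (interscapular, BAT). They were induced to become adipocytes in culture with either EGCG (epigallocatechin gallate, the main catechin of green tea) or its solvent DMSO, called control below, and collected on day 4 or day 8. The induction mixture of insulin, dexamethasone and IBMX was common to all groups and was followed by insulin and T3. This gave 8 groups (WAT or BAT, day 4 or day 8, control or EGCG) with 3 libraries each, 24 in all. The labels give no dose of EGCG and do not say whether replicates were separate isolations, so that p-values measure only the spread between these samples, which may be technical. A stromal vascular preparation also holds endothelial, immune, nerve and epithelial cells, and in bulk RNA a change in the number of cells of a type and a change in RNA per cell cannot be told apart.

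Levels are in FPKM, read counts scaled to gene length and library depth, which allows levels to be compared between genes. Replicates 1 and 2 came in one table (39452696 to 52893848 reads on genes per library) and replicate 3 in a second, separately normalized table (16392420 to 41675643 reads). Tests therefore used the 16 libraries of the first table, and replicate 3 is given beside them. In WAT day 8 EGCG replicate 3, 5 genes took 61% of the reads, against 3.64 to 9.08% in the other 7 libraries of its table, and all 25 tested Hox genes were below both other libraries of its group, so it is set aside below unless named. In the same second table Hoxd4, Hoxb2 and Hoxb8 were above both other replicates in 7 of 7 groups (median ratio 3.65, 1.83 and 1.93), whereas Hoxa6 and Hoxb3 were below both in 7 of 7 (0.570 and 0.633); these levels therefore hold within a table only.

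Of the 40 annotated members, 25 reached 1 FPKM in at least 2 of the 16 libraries and were tested among 14095 genes. Among those just inside this limit was Hoxc13, with a second highest library at 1.43 FPKM, and just outside it Hoxb8, at 0.783 FPKM. Passing the filter was itself tied to a group for 10 of them: 4 members (Hoxa9, Hoxa10, Hoxc9 and Hoxc10) passed through WAT libraries alone, 5 through BAT libraries alone, and Hoxc13 through EGCG libraries alone. The 15 members that were not tested were Hoxa11, Hoxa13, Hoxb1, Hoxb2, Hoxb8, Hoxb13, Hoxc11, Hoxc12, Hoxd1, Hoxd4, Hoxd10, Hoxd11, Hoxd12, Hoxd13 and the second annotated Hoxa3, whose exons all overlap other genes and which had no read. With more than 3 reads in each library as the floor, 29 members were seen in all 8 WAT libraries of the first table and 25 in all 8 BAT libraries. The 4 seen in WAT but not throughout BAT were Hoxa10, Hoxc10, Hoxc11 and Hoxc13, all from the tail end of their clusters.

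Promoter sequence was looked at for members that differed between the depots. RefSeq windows (GRCm38.p6) were at hand for 22 of the 39 symbols, 24 windows in all, and the 250 bases before the start each matched NCBIM37, the build of the tables, at a single place. The 4 shown are windows that hold no annotated exon, the upper pair from genes with higher levels in BAT and the lower pair from genes with higher levels in WAT. They are written 5′ to 3′ on the strand of the gene, and capitals mark CpG dinucleotides. Hoxa5 lies at chr6:52154587-52154836 on the minus strand, Hoxd8 at chr2:74542422-74542671 on the plus strand, Hoxa9 at chr6:52177370-52177619 and Hoxa10 at chr6:52190854-52191103, both on the minus strand; the Hoxa9 window falls in an intron of the longer gene model and the others lie directly before their gene.
Hoxa5: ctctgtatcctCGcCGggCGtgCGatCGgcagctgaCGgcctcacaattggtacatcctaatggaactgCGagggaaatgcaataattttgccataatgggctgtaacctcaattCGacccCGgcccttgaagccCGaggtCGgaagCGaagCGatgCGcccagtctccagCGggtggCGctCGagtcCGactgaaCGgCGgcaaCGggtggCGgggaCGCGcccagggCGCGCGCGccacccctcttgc
Hoxd8: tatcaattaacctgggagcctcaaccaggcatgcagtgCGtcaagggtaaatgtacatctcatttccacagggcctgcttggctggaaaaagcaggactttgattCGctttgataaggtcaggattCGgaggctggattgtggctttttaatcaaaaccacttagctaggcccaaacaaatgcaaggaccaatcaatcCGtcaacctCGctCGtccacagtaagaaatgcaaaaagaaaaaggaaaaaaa
Hoxa9: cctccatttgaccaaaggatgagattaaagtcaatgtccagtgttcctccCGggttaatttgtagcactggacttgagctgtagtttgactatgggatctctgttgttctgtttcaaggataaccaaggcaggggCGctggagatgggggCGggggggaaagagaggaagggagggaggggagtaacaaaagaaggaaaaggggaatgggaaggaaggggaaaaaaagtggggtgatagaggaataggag
Hoxa10: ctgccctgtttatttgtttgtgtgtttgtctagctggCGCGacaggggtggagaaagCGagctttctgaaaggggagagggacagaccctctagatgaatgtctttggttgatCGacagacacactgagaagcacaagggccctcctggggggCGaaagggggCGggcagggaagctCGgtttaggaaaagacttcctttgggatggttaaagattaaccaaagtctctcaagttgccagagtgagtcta

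The 4 windows differ in CpG content, with 28 CpG in Hoxa5, 6 in Hoxd8, 3 in Hoxa9 and 7 in Hoxa10, against a median of 6 over 32851 promoter windows and of 12.5 over the 24 Hox windows. Searched on both strands, TGATNNAT, a motif read by Hox proteins together with Pbx, was in 4 of 24 Hox windows (16.7%) and in 7.68% of all windows. TTTATG, the core preferred by tail-end Hox proteins, was in 5 of 24 (20.8%) against 10.8% of all, and TATAAA in 4 of 24 (16.7%) against 12.4%. None of the 4 printed windows holds any of these 3 motifs, which says only that these letters are not there. A second Hoxa10 window without annotated exon, at chr6:52184939-52185188 and not printed, holds 20 CpG and 1 TATAAA. The CpG count and the lack of motifs given for Hoxa10 thus hold for the printed window only.

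The first comparison was between depots. Hoxa2 to Hoxa5 and Hoxb3 to Hoxb6 were higher in BAT, and Hoxa9, Hoxa10, Hoxc8, Hoxc9 and Hoxc10 were higher in WAT, in all 4 conditions (day 4 and day 8, control and EGCG). Hoxa5 had a median of 2.45 FPKM over the 8 WAT and 10.6 over the 8 BAT libraries, whereas Hoxa10 and Hoxc10 had 3430 and 6100 reads in WAT and 8 and 15 in BAT. In clusters B and D no tested member passed as higher in WAT. Hoxb9 passed as higher in BAT in 3 conditions and Hoxd9 in 2. In day 8 controls Hoxb9 leaned towards WAT without passing (log2 change -0.37). Its calls in day 4 controls and with EGCG on day 8 were lost with median-ratio scaling and after quantile normalization. Hoxd10, which was below the filter, had more reads in WAT. The 4 depot comparisons use different libraries and are given side by side.

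**Figure D1:**
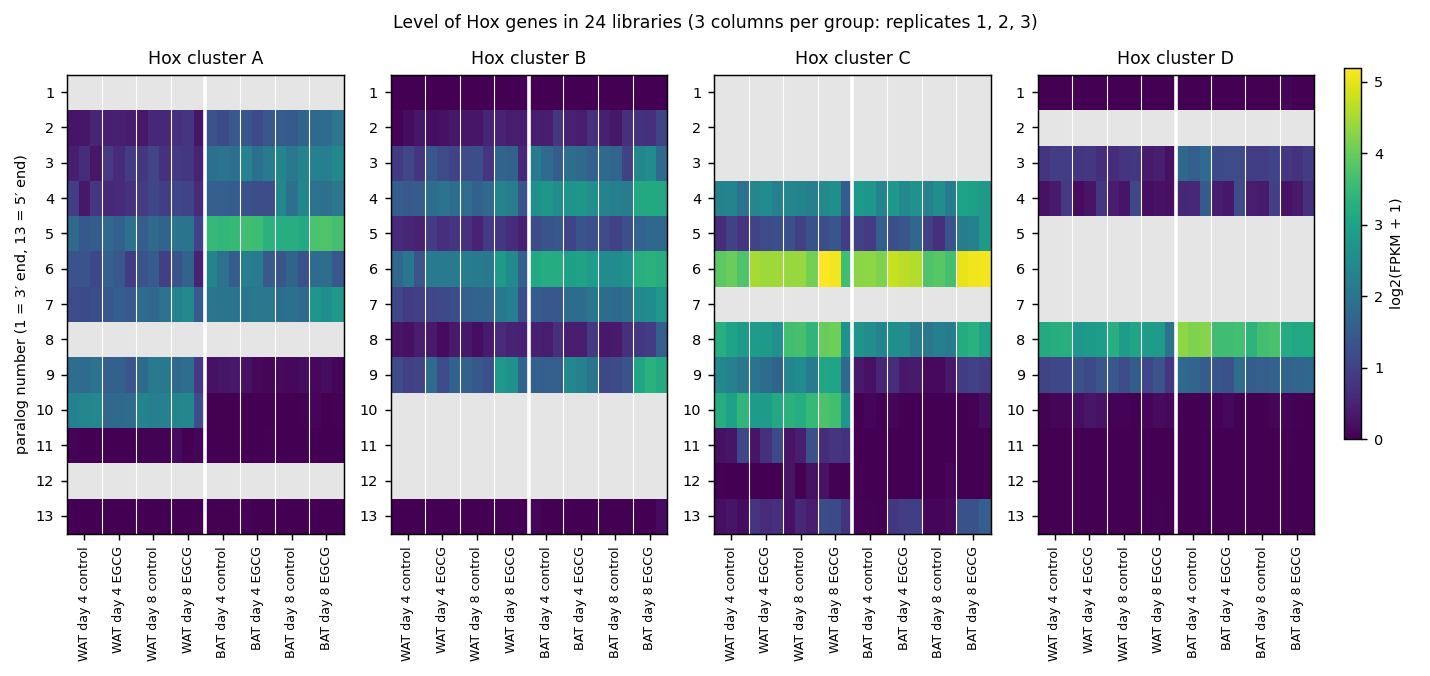
Level of Hox genes as log2(FPKM + 1), colour scale from 0 to above 5, by paralog number (rows) and library (columns, 3 per group, WAT left and BAT right of the thick line) in the 4 clusters; light grey rows are paralog numbers with no gene shown. In clusters A and C rows 9 and 10 are bright in WAT alone, while Hoxc6 is the brightest row in both depots.

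In day 4 controls 17 members were higher in BAT (68.0% of those tested, against 41.4% of all genes) and 5 higher in WAT (20.0% against 14.4%). With EGCG on day 4 the counts were 15 (background 32.9%) and 5 (15.8%). In day 8 controls they were 10 (31.6%) and 7 (22.0%), and with EGCG on day 8 they were 15 (24.4%) and 5 (14.0%). The median log2 change of the tested members was 0.63, 0.39, 0.19 and 0.38 in that order, against 0.15, 0.09, 0.05 and 0.05 over all genes. Median-ratio scaling moved the median of all genes by -0.14 in day 4 controls and left 16 members higher in BAT and 5 in WAT. Changes are on the log2(FPKM + 1) scale, with the adjusted p of limma, and this scale understates the change of low genes.

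By class, members 1 to 3 were higher in BAT in 4 of 5 tested in each condition and never higher in WAT. Members 4 to 8 were higher in BAT in 11, 10, 6 and 9 of 13, in the order above, and higher in WAT in 1, 1, 2 and 1. Members 9 to 13 were higher in WAT in 4, 4, 5 and 4 of 7, but Hoxa9, Hoxa10, Hoxc9 and Hoxc10 among them passed the filter through WAT libraries alone and so had to differ, as did the 5 members that passed through BAT alone. Of the 25, the 8 named above passed as higher in BAT in all 4 conditions, as did 7.18% of all tested genes. The 5 named above passed as higher in WAT in all 4, as did 3.00% of all tested genes. Of the rest, 11 passed in fewer conditions and in one direction, and Hoxc6 passed in both directions. In replicate 3 the called members had the same sign in 22 of 22, 20 of 20, 17 of 17 and 19 of 20 cases, in the order above. The exception was Hoxc8 with EGCG on day 8, where the WAT library dominated by 5 genes had 5.40 FPKM and the BAT library 6.95, and 20 of 20 had the same sign once those genes were left out of the totals.

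**Figure D2:**
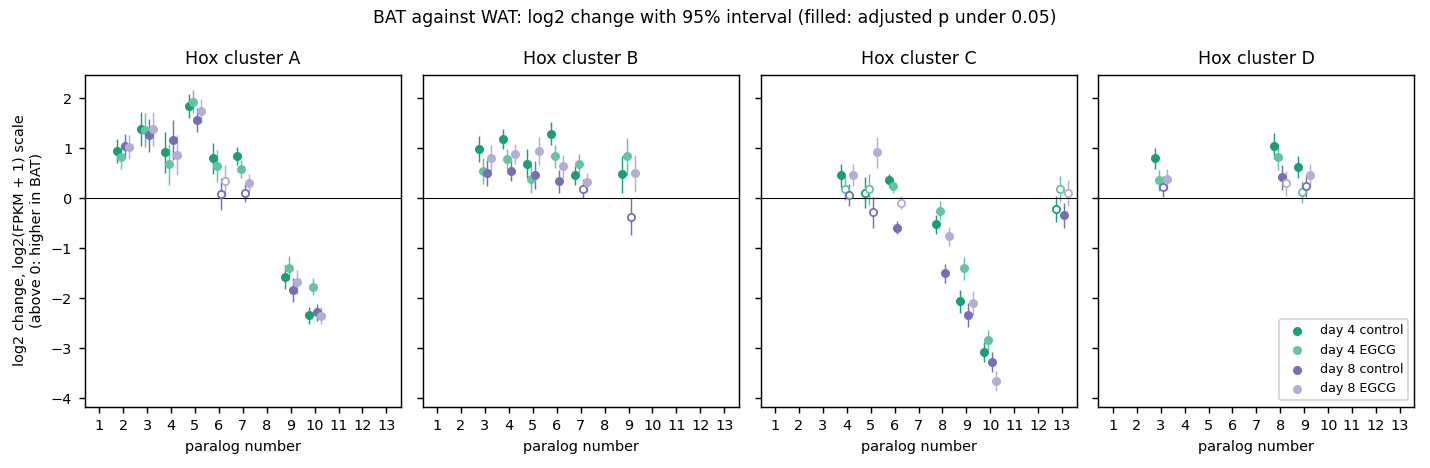
Log2 change of BAT against WAT (vertical axis, log2(FPKM + 1) scale, bars are 95% intervals) by paralog number in each cluster for the 4 conditions; filled points passed at an adjusted p under 0.05. Cluster A falls from above 0 at Hoxa7 to below -1 at Hoxa9, cluster C falls stepwise from Hoxc6 to Hoxc10, and in clusters B and D every filled point lies above 0.

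Hoxa5 is a middle member known for roles in lung and axial skeleton and often used as a mark of fat depots. It showed the largest BAT excess on the log2(FPKM + 1) scale. By reads over all 8 libraries a depot the ratio was larger for Hoxa3 (3857 in BAT, 821 in WAT) than for Hoxa5 (7255 and 1635). In WAT controls Hoxa5 had 2.47 and 1.71 FPKM on day 4 and 1.96 and 2.48 on day 8, and with EGCG 2.43 and 2.00 on day 4 and 2.97 and 2.98 on day 8. In BAT the corresponding pairs were 10.2 and 9.89, 8.44 and 8.48, 11.4 and 11.1, and 12.2 and 12.6 FPKM. No WAT library came near the lowest BAT library, and replicate 3, with the library set aside left out, lay at 1.89 to 2.89 FPKM in WAT and 8.05 to 11.6 in BAT. The log2 change was 1.85 ± 0.11 (SE) in day 4 controls (adjusted p = 2.39e-07) and 1.56 ± 0.11 in day 8 controls (adjusted p = 3.79e-07), and with EGCG it was 1.93 and 1.75.

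Hoxa3, active in pharyngeal and neck structures, ranged from 0.353 through a median of 0.801 to 1.13 FPKM over the 8 WAT libraries and from 2.73 through 3.46 to 4.18 over the 8 BAT libraries. Its log2 change was between 1.26 and 1.39 in the 4 conditions, with 53.5% of its exonic bases shared with other annotated genes. Hoxa2 (0.225 to 0.756 FPKM in WAT, 1.21 to 2.51 in BAT) and Hoxa4 (0.263 to 1.16 and 1.39 to 4.40) were separated in the same way. Over the 16 libraries 6 tested members, these 4 with Hoxb3 and Hoxb5, had every BAT library above every WAT library, against 1.33% of all tested genes. In the other direction 4 did, Hoxa9, Hoxa10, Hoxc9 and Hoxc10, against 0.937%. The last 4, and Hoxa2, Hoxa3 and Hoxb5 among the first 6, passed the filter through 1 depot alone and so had to differ. For Hoxb3 the gap was narrow, from 2.19 FPKM in the highest WAT library to 2.25 in the lowest BAT library. In replicate 3 the depots overlapped for Hoxb3, with 1.02 FPKM in BAT day 8 controls and 1.05 in WAT day 4 EGCG.

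The turn in cluster A lay between Hoxa7 and Hoxa9, neighbours on chromosome 6 (Hoxa7 at 52164490 to 52171853, Hoxa9 at 52173099 to 52181088, NCBIM37, minus strand). Hoxa7 was higher in BAT on day 4 (log2 change 0.85 ± 0.08 in controls, adjusted p = 6.24e-06), and in day 8 controls the difference was 0.11 ± 0.08 (adjusted p = 0.291). Hoxa9 ranged from 1.98 through 2.51 to 3.37 FPKM in WAT and from 0.0794 through 0.117 to 0.227 in BAT, with log2 changes of -1.40 to -1.83. Over all 8 libraries a depot it had 2962 reads in WAT and 162 in BAT, 18.2-fold higher in WAT (95% exact interval of the counting error 15.5 to 21.4).

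Hoxa10, a tail-end gene known from uterus, limb and blood progenitors, gave the sharpest contrast in that cluster. In WAT controls its levels were 3.90 and 4.21 FPKM on day 4 and 4.01 and 3.70 on day 8, and with EGCG 2.37 and 2.47 on day 4 and 4.18 and 4.31 on day 8. The BAT libraries held 0 to 7 reads, 8 reads in all against 3430 in WAT. In both control comparisons BAT had no read, which put WAT at least 294-fold higher on day 4 and at least 285-fold higher on day 8 with a floor of 3 reads over the group. Hoxa11, the next gene, had at most 15 reads in any library and Hoxa13 at most 4, so that in cluster A the last gene above 1 FPKM was Hoxa10 in WAT and Hoxa7 in BAT.

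Cluster C, which has no members 1 to 3, turned in steps. Hoxc4 and Hoxc5, at the head end, passed as higher in BAT or did not pass: Hoxc4 passed in day 4 controls (0.46) and with EGCG on day 8 (0.46), and Hoxc5 with EGCG on day 8 alone (0.92). Hoxc6 had the highest levels of all members in WAT, and of all but Hoxd8 in single BAT libraries, with 13.8 to 35.4 FPKM in WAT and 12.6 to 33.1 in BAT. It was slightly higher in BAT on day 4 (0.35 ± 0.06 in controls, adjusted p = 0.000287) and higher in WAT in day 8 controls (-0.59 ± 0.06, adjusted p = 4.9e-06).

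Hoxc8, next towards the tail, had 8.65 and 7.12 FPKM in WAT day 4 controls and 11.4 and 11.9 in WAT day 8 controls. Its BAT controls had 5.43 and 4.89 FPKM on day 4 and 3.19 and 3.73 on day 8. The groups did not overlap at either day, and the log2 change was -0.52 ± 0.09 on day 4 and -1.50 ± 0.09 on day 8. With EGCG the log2 change was -0.25 on day 4 (adjusted p = 0.0311) and -0.76 on day 8.

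Hoxc9, commonly used to tell white from brown preadipocytes, ranged from 2.59 through 4.35 to 7.35 FPKM in WAT and from 0.0961 through 0.282 to 1.003 in BAT, and its log2 change was -1.40 to -2.33. By reads it was 18.7-fold higher in WAT in day 4 controls (95% exact interval 13.8 to 25.8) and 46.1-fold in day 8 controls (29.7 to 75.8), and with EGCG 6.52-fold (5.24 to 8.20) and 7.69-fold (6.68 to 8.88).

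Hoxc10, another gene of the hindlimb and lumbar level, had 8.50 and 6.89 FPKM in WAT day 4 controls, 9.12 and 8.37 in WAT day 8 controls, 6.35 and 6.28 with EGCG on day 4 and 12.5 and 11.3 with EGCG on day 8. In BAT no library held more than 5 reads, and the 8 together had 15 against 6100 in WAT, 404-fold higher in WAT (95% exact interval 245 to 722). The log2 changes of -2.83 to -3.66 were the largest of any member. Hoxc11, which was below the filter, had 287 reads in WAT and none in BAT in the first table, at least 95-fold higher in WAT. Hoxc12 had 24 reads against none, at least 7.94-fold. The level of Hoxc11 depended on the table. Its replicate 3 had 1.18 FPKM in WAT day 4 controls, 1.24 with EGCG on day 4 and 1.43 in WAT day 8 controls, above 1 FPKM.

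Cluster B, whose members passed as higher in BAT or not at all, was led by Hoxb6 in level (2.36 to 6.12 FPKM in WAT, 4.73 to 9.12 in BAT) and Hoxb4, a gene known from blood stem cells (1.75 to 4.02 and 3.73 to 7.93). In day 4 controls their log2 changes were 1.29 ± 0.11 and 1.18 ± 0.09, and in day 8 controls 0.33 ± 0.11 and 0.54 ± 0.09. Hoxb3 was 0.842 to 2.19 FPKM in WAT and 2.25 to 4.68 in BAT, and Hoxb5 0.425 to 0.887 and 1.01 to 2.34. Hoxb7 and Hoxb8 share 26.2% and 40.4% of their exonic bases with each other or other genes, and Hoxb3 and Hoxb2 overlap an antisense transcript, so the reads of these members are uncertain where strand was not used. Hoxb1 and Hoxb13, the ends of the cluster, had at most 1 and 4 reads in any of the 16 libraries.

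In cluster D 3 members were tested. Hoxd8 ranged from 5.67 through 6.32 to 8.77 FPKM in WAT and from 7.65 through 11.2 to 18.8 in BAT and was higher in BAT in 3 of 4 conditions (1.04 ± 0.12 in day 4 controls, 0.42 ± 0.12 in day 8 controls). Hoxd3 and Hoxd9 were higher in BAT in 3 and 2 conditions. Hoxd4 shares 67.4% of its exonic bases with other genes, Hoxd3 among them. Hoxd1 and Hoxd11 to Hoxd13 had at most 4 reads in a library. Hoxd10 was the exception to the lean of its cluster, with 83 reads in WAT and 24 in BAT, 3.43-fold higher in WAT by reads (95% exact interval 2.16 to 5.66, counting error only, at most 0.243 FPKM).

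Marker genes of other cells were set beside these differences. The 6 epithelial and mammary markers summed to 17.3 to 94.1 FPKM in WAT and to at most 0.153 FPKM in BAT, where Krt14 had no read, so they moved with depot as Hoxa9, Hoxa10, Hoxc9 and Hoxc10 did. Within WAT the marker sum was 39.7 and 31.5 FPKM in day 4 controls and 20.7 and 17.3 in day 8 controls. The 5 stromal markers summed to 2439 to 5350 FPKM in WAT and 1126 to 1760 in BAT. Their part in the Hox differences was not tested. The label of the BAT cells was checked by Zic1, a brown depot gene, with group means of 3.81 to 10.8 FPKM in BAT and 0.045 to 0.146 in WAT. With Lhx8, Meox2 and Epsti1 it summed to 17.2 to 45.5 FPKM in BAT and 8.75 to 22.9 in WAT, overlapping as a sum. The 4 white depot genes Tcf21, Tbx15, Shox2 and Wt1 overlapped too, with 36.0 to 47.9 FPKM in WAT and 21.3 to 39.7 in BAT. With EGCG on day 8 their sums were 41.8 and 42.5 FPKM in WAT and 39.7 and 38.6 in BAT. Thermogenic markers were high in BAT day 8 controls alone (210 to 213 FPKM, at most 23.1 elsewhere).

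How much of the variation lay between depots was then measured for each gene, as the share of the sum of squares between the 8 group means. For the 25 tested members the median share was 64.5%, against 9.21% over all 14095 genes, and 15 of the 25 had more than 50 percent between depots, as did 7.68% of all genes. The filter bears on this share, since 9 of the 25 passed through 1 depot alone, and with no filter the median was 39.3% over 39 members against 10.9% over 26587 genes. Day took a median of 7.57% and EGCG 8.98%, against 19.8% and 21.9% over all genes. The shares were highest in clusters A and C, 98.3% for Hoxa9 and Hoxc10, 97.5% for Hoxa10, and 96.6% for Hoxa5. At the other extreme were Hoxc6 (0.1%, with 67.2% on EGCG), Hoxc13 (0.6%, with 80.9% on EGCG) and Hoxb9 (6.3%, with 58.3% on EGCG).

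**Figure D3:**
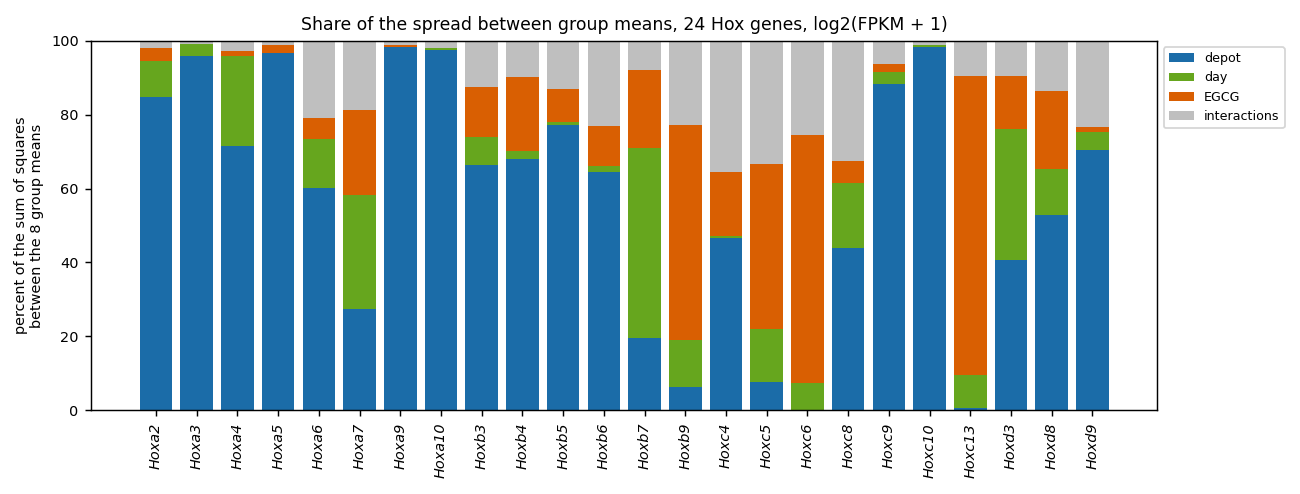
Percent of the sum of squares between the 8 group means, on the log2(FPKM + 1) scale, that lies between depots, days, EGCG and control, or in their interactions, for 24 tested Hox genes in cluster order. Blue bars above 95% mark Hoxa3, Hoxa5, Hoxa9, Hoxa10 and Hoxc10, and orange bars lead in Hoxb9, Hoxc5, Hoxc6 and Hoxc13.

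The second comparison was of EGCG with control within a depot and day. With replicates 1 and 2, 8 to 9 members passed on day 4 and 14 to 16 on day 8, but in WAT the order turned with both tables, where 17 passed on day 4 and 14 on day 8 once the library dominated by 5 genes was left out. On day 8 Hoxb9, Hoxc13, Hoxc6, Hoxc8 and Hoxc9 rose in both depots and Hoxc5 in BAT, while Hoxd8 fell in BAT and Hoxd3 in WAT. The 4 EGCG comparisons use separate libraries, but each shares its control libraries with a day and a depot comparison.

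In WAT 4 members were higher with EGCG on day 4 (16% of those tested, background 34.4%) and 5 lower (20%, background 19.3%), and on day 8 there were 13 higher (52% against 44.7%) and 1 lower (4% against 18.9%). In BAT 5 were higher (20% against 27.9%) and 3 lower (12% against 20.6%) on day 4, and 15 higher (60% against 46.5%) and 1 lower (4% against 26.1%) on day 8. The shares of members called were thus near or below those of all genes, save for members higher on day 8, which were somewhat above them. The median log2 change of the members on day 8 was 0.31 in WAT and 0.57 in BAT, and that of all genes 0.17 in each. Median-ratio scaling moved the median of all genes by -0.17 in WAT and -0.16 in BAT on day 8, and gave 8 members higher and 3 lower in WAT, and 14 and 2 in BAT, with no change of sign among the called members. After quantile normalization the day 4 counts were 3 higher against 6 lower for WAT and 4 against 4 for BAT. In replicate 3 of WAT day 8, the library dominated by 5 genes, 3 of 14 called members had the same sign as deposited and 14 of 14 once those genes were left out of the totals, whereas 16 of 16 had it in BAT day 8. On day 4 replicate 3 had the same sign for 9 of 9 called members in WAT and 7 of 8 in BAT. The exception was Hoxd9.

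**Figure D4:**
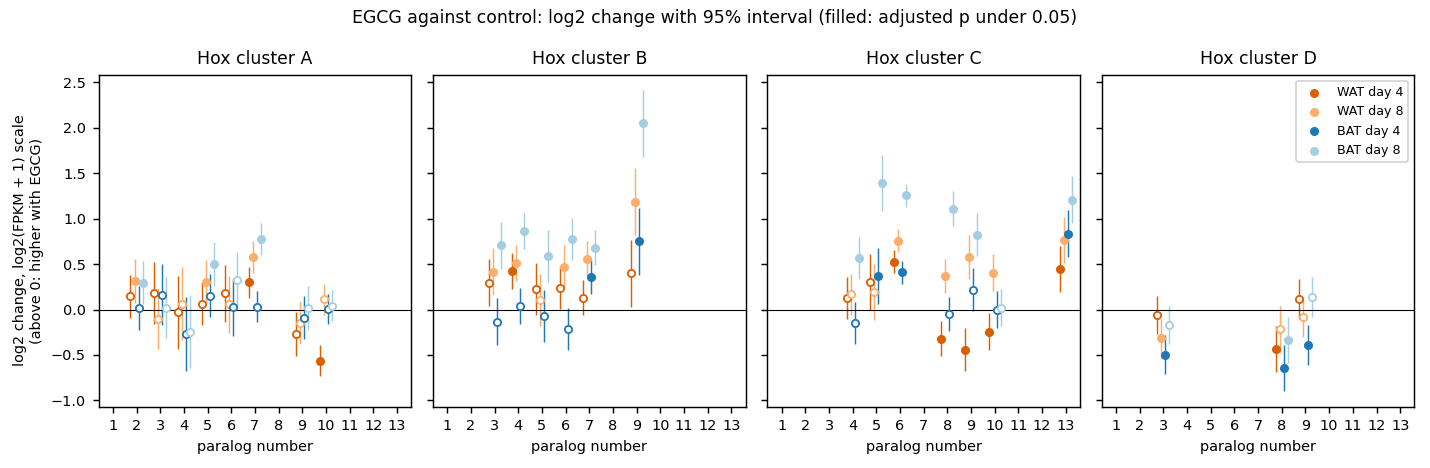
Log2 change of EGCG against control (vertical axis, log2(FPKM + 1) scale, bars are 95% intervals) by paralog number in each cluster for WAT and BAT on days 4 and 8; filled points passed at an adjusted p under 0.05. BAT day 8 reaches 2.05 at Hoxb9 and lies at 0.02 at Hoxc10, and in cluster D the filled points all lie below 0.

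Hoxb9 had the largest change on the log2(FPKM + 1) scale, though by reads its 6.82-fold rise in BAT day 8 was smaller than that of Hoxc13 described next. In BAT it had 2.01 and 1.98 FPKM in day 4 controls and 4.28 and 3.82 with EGCG, then 1.16 and 1.27 in day 8 controls and 7.47 and 8.95 with EGCG. In WAT the day 8 pairs were 2.02 and 1.70 in controls and 5.804 and 5.22 with EGCG. Control and EGCG libraries did not overlap in any of these, and the log2 change was 2.05 ± 0.17 in BAT day 8 (adjusted p = 3.89e-07), 1.19 ± 0.17 in WAT day 8 (6.84e-05) and 0.75 ± 0.17 in BAT day 4 (0.00296). WAT day 4 did not pass (0.40 ± 0.17, adjusted p = 0.0661).

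Hoxc13, a gene of hair and nail and the most tail-end member of its cluster, was almost silent in BAT controls and present with EGCG. Its BAT pairs were 0.0404 and 0.0271 FPKM in day 4 controls, 0.778 and 0.915 with EGCG on day 4, 0.0524 and 0.0618 in day 8 controls and 1.43 and 1.46 with EGCG on day 8, and replicate 3 went from 0 to 0.963 and from 0.092 to 1.93. The reads rose from 7 to 195 on day 4, 25.5-fold (95% exact interval 12.1 to 64.2), and from 12 to 355 on day 8, 25.5-fold (14.4 to 49.8). In WAT they rose from 45 to 140 on day 4, 3.23-fold (2.29 to 4.63), and from 74 to 290 on day 8, 3.83-fold (2.96 to 5.02). The log2 changes, understated at these levels, were 0.84 and 1.21 in BAT and 0.44 and 0.76 in WAT, all passing at adjusted p of 9.91e-05, 1.57e-06, 0.00716 and 0.000123. Hoxc13 reached the filter through EGCG libraries alone and so had to differ, which limits what these p-values show. Hoxc11 and Hoxc12, the genes beside it, had no read in BAT with or without EGCG in the first table, so Hoxc13 was set apart from its neighbours there.

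The middle of cluster C rose in BAT on day 8. Hoxc5 went from 0.971 and 0.650 FPKM to 3.62 and 3.85 (log2 change 1.39 ± 0.14, adjusted p = 2.46e-06), Hoxc6 from 12.6 and 13.4 to 31.8 and 33.1 (1.26 ± 0.06, 2.26e-09) and Hoxc8 from 3.19 and 3.73 to 8.25 and 8.99 (1.11 ± 0.09, 2.49e-07). Hoxc9 rose with them, to 0.881 and 1.003 FPKM from 0.0996 and 0.0961, yet stayed below every WAT library. Hoxc6 was also higher with EGCG in the other 3 settings (0.41 to 0.76). Hoxc10 and Hoxa10 remained near the floor in BAT, with 4 and 7 reads with EGCG on day 8 over both libraries. From day 8 controls to EGCG their means went from 0.0056 to 0.0198 FPKM and from 0 to 0.0291 FPKM. These levels are too low to tell whether they followed.

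In WAT on day 4 the 5 members that fell with EGCG were Hoxa10, Hoxc8, Hoxc9, Hoxc10 and Hoxd8. Hoxa10 went from 3.90 and 4.21 FPKM to 2.37 and 2.47 (log2 change -0.56 ± 0.08, adjusted p = 8.94e-05), and Hoxc8, Hoxc9 and Hoxc10 changed by -0.32, -0.44 and -0.24. On day 8 Hoxc8, Hoxc9 and Hoxc10 were higher with EGCG (0.37, 0.58 and 0.40), and Hoxa10 did not pass (0.11, adjusted p = 0.233). The day 8 calls of Hoxc8 and Hoxc10 were lost with median-ratio scaling (0.18 and 0.22, adjusted p = 0.101 and 0.0621), and that of Hoxc8 also after quantile normalization (0.19, adjusted p = 0.079). Hoxd8 fell from 18.8 and 17.4 FPKM to 11.2 and 11.2 in BAT day 4 (-0.65 ± 0.12, adjusted p = 0.000683) and changed by -0.43 in WAT day 4 and -0.34 in BAT day 8. Hoxd3 fell in BAT day 4 (-0.50) and WAT day 8 (-0.32).

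**Figure D5:**
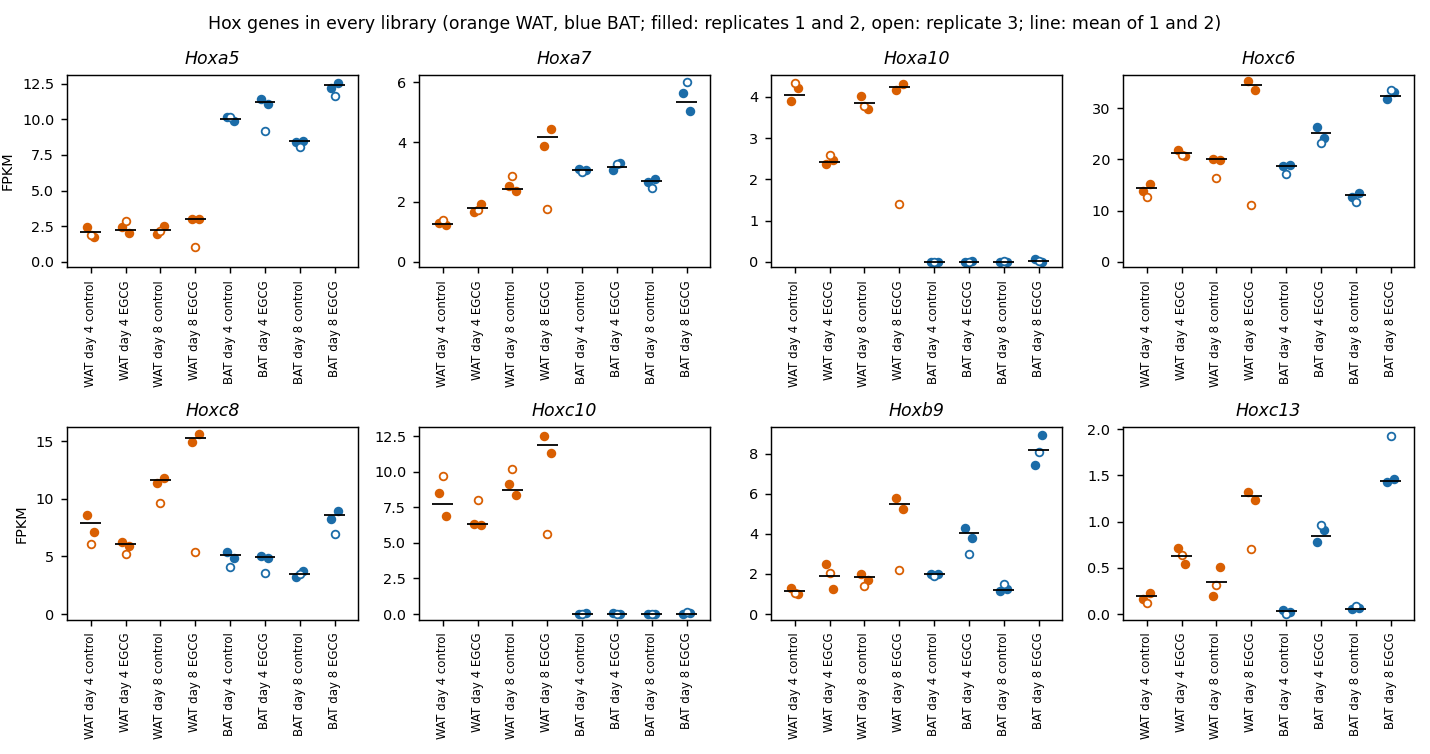
FPKM (vertical axis, each panel with its own scale) of 8 Hox genes in every library of the 8 groups; filled points are replicates 1 and 2, open points replicate 3 of the separately normalized table, lines the mean of replicates 1 and 2. Hoxa5, Hoxa10 and Hoxc10 separate WAT from BAT in every group, whereas Hoxc13 and Hoxb9 are highest with EGCG on day 8 in both depots; the open point of WAT day 8 EGCG lies below the line of its group in all panels.

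Other cells' markers moved with EGCG as well. The 6 adipocyte markers summed to 4283 and 4918 FPKM in WAT day 8 controls and 149 and 162 with EGCG, and to 8636 and 8744 and then 316 and 312 in BAT. The 4 Schwann and nerve markers rose from 21.7 and 22.8 to 49.5 and 46.4 FPKM in BAT day 8 and from 16.7 and 13.9 to 33.4 and 32.7 in WAT day 8, and the 5 endothelial markers from 14.9 and 15.6 to 30.0 and 28.6 in BAT day 8. The 5 macrophage markers fell from 99.3 and 101 to 54.5 and 55.1 FPKM in BAT day 8. On day 4 these macrophage markers rose with EGCG. They went from 158 and 148 to 379 and 338 FPKM in BAT and from 69.8 and 64.5 to 179 and 175 in WAT. The 5 stromal markers fell from 5350 and 4841 to 2439 and 2501 FPKM in WAT day 8 and from 1728 and 1760 to 1126 and 1146 in BAT day 8. The part of these cells in the Hox changes with EGCG was not tested.

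The third comparison was of day 8 with day 4. With EGCG more members rose from day 4 to day 8 than the background in both depots, and in controls the share that rose in WAT or fell in BAT was close to that of all genes. In WAT controls 8 members were higher on day 8 (32% of those tested, against 27.7% of all genes) and none lower by limma (33.2% of all genes; also 0 by voom and at an unadjusted p under 0.05), and with EGCG 16 were higher (64% against 31.8%) and 1 lower (4% against 27.7%). In BAT controls 3 were higher (12% against 28.7%) and 9 lower (36% against 40.4%), and with EGCG 17 were higher (68% against 29.7%) and 2 lower (8% against 28.2%). Median-ratio scaling, which moved the median of all genes by 0.14 in BAT controls, gave 5 higher and 7 lower there, and after quantile normalization WAT controls had 5 higher and 1 lower. In replicate 3 the called members had the same sign in 8 of 8 cases in WAT controls and 12 of 12 in BAT controls. With EGCG it was 18 of 19 in BAT (not Hoxd9) and 6 of 17 in WAT as deposited. Once the 5 dominant genes were left out of the totals, WAT with EGCG had 16 of 17 (not Hoxa5).

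The largest rises in WAT controls were Hoxb7, from 1.14 and 0.864 to 1.97 and 2.18 FPKM (0.62 ± 0.09, adjusted p = 6.89e-05), and Hoxa7, from 1.30 and 1.24 to 2.52 and 2.38 (0.60 ± 0.08, 4.09e-05). The largest falls in BAT controls were Hoxd8, from 18.8 and 17.4 to 9.32 and 11.4 FPKM (-0.76 ± 0.12, 0.000105), and Hoxd3, from 2.39 and 1.97 to 0.957 and 0.920 (-0.71 ± 0.10, 3.93e-05). With EGCG Hoxb9 and Hoxc8 rose most in WAT (1.20 each) and Hoxc5 and Hoxb9 in BAT (0.92 and 0.86). Hoxb7 passed as higher on day 8 in all 4 day comparisons (0.35 to 1.05). Cell markers moved with day as well. In WAT controls the adipocyte markers went from 2357 and 2060 to 4283 and 4918 FPKM, and the stromal markers from 3365 and 3401 to 5350 and 4841. In BAT controls the thermogenic markers went from 6.68 and 7.52 to 213 and 210 FPKM. The part of these cells in the Hox changes with day was not tested.

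Whether the depots differed in these responses was tested as an interaction. For EGCG on day 4 there were 6 members that passed (24%, background 28.1%). Hoxa10 and Hoxc9 fell in WAT and did not pass in BAT, where Hoxa10 had 0 reads in controls and 1 with EGCG, which gave a BAT minus WAT difference above 0, and Hoxb4, Hoxb6, Hoxd3 and Hoxd9 had a difference below 0. On day 8 the count was 8 (32%, background 39.2%), 7 of them with the difference above 0, among them Hoxc5 (1.20 ± 0.20, adjusted p = 0.000669), Hoxb9 (0.86 ± 0.24, 0.0136) and Hoxc8 (0.74 ± 0.12, 0.000645). For day 8 against day 4 in controls 12 passed (48%, background 40.0%), all 12 with a difference below 0 and none above it by limma or by voom, also at an unadjusted p under 0.05, such as Hoxc8 (-0.98 ± 0.12, adjusted p = 0.000121) and Hoxb6 (-0.96 ± 0.15, 0.000515). Both EGCG counts depended on single libraries and on scaling. Leaving out each library in turn gave 2 to 7 on day 4 and 3 to 6 on day 8, and median-ratio scaling gave 2 above and 1 below 0 on day 4 and 4 and 0 on day 8, against 2 and 4 and 7 and 1 here. The count for day in controls moved too, from 12 to between 8 and 11 with each library left out. It was 9 with median-ratio scaling and 8 after quantile normalization, with none above 0 in either.

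Partners and regulators of Hox genes were described as lists. The TALE cofactors Pbx, Meis and Pknox bind DNA with Hox proteins, and 8 of the 9 were tested. In BAT day 8 7 of 8 were higher with EGCG and none lower (87.5% against 46.5% of all genes), with a median log2 change of 0.66, and in WAT day 8 7 of 8 (against 44.7%) with 0.31, where the median of all genes was 0.17 in each. Pknox2 went from a mean of 6.29 to 19.8 FPKM in BAT day 8 (1.51). Between depots on day 8 the direction was not the same with and without EGCG. In controls 1 of 8 was higher in BAT (background 31.6%) and 5 of 8 higher in WAT (background 22.0%). With EGCG 3 were higher in BAT (24.4%) and 0 in WAT (14.0%). Trithorax and Polycomb genes keep Hox genes on or off, and they were listed with other regulators of the clusters (Ctcf, Nipbl and Hdac3). Of these 27 genes, 15 were higher in BAT in day 4 controls (55.6% against 41.4%) and 1 lower, with a median of 0.18 against 0.15 for all genes. Jarid2 was the one with the largest EGCG change among them, falling by 1.67 on the log2 scale in BAT day 8.

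Genes beside and inside the clusters were looked at for the same turn. Of the 24 nearest protein-coding neighbours 18 were tested, and in the depot comparisons 13, 9, 9 and 5 were higher in BAT and 0, 2, 3 and 2 higher in WAT, with medians of 0.30, 0.17, 0.14 and 0.11. The shares higher in BAT were 72.2, 50, 50 and 27.8%, against 41.4, 32.9, 31.6 and 24.4% of all genes, whose medians were 0.15, 0.09, 0.05 and 0.05. Skap2, beside the head end of cluster A, was higher in BAT throughout (0.47 to 0.63), and over the 18 genes and 4 conditions the changes ran from -0.44 to 1.19. Inside the clusters 7 of 29 noncoding genes were tested. Hoxb3os, antisense in the Hoxb3 region, was higher in BAT in all 4 conditions (0.63 to 0.97), and Gm15050 in 3 (0.97 to 1.80). RP23-329P9.11, which overlaps Hoxa9 on the same strand, was below the filter, with group means of 0.186 to 0.428 FPKM in WAT, 0 in BAT controls and 0.004 in BAT with EGCG.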

How the data were processed

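RNA was sequenced from 24 libraries (8 groups with 3 replicates). The authors deposited FPKM values in 2 tables, replicates 1 and 2 in one and replicate 3 in the other, each normalized separately; per the labels, the build was mm9 (NCBIM37), and the submitters' processing notes name FastQC 0.11.9, HISAT2 2.2.0 and HTSeq 0.11. Strand use in counting is not given in the sources used here. All FPKM values were whole multiples of 1 read, within 0.01, so reads per gene were recovered for depth and counting intervals, which cover counting error only.

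Tests used limma 3.58.1 (R 4.3.3) on log2(FPKM + 1) of the first table, on genes with 1 FPKM in at least 2 libraries, with Benjamini-Hochberg adjustment over 14095 genes, a two-sided threshold of 0.05 and 8 residual degrees of freedom. The script was tested on simulated data. Values in every library are given for the highest and lowest depot changes of each cluster and the largest EGCG and day changes; Hoxa2, Hoxa4, Hoxc12 and Hoxd10 were named after their values were seen. The members and lists were chosen with earlier results of these data known. Replicate pairs differed by more than sampling noise. Alternatives were other pseudocounts, filters, scalings, both tables, a replicate block, voom and each library left out. Values of 1 member and 1 cofactor are not reported here; they stay in the counts.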

Additional observations from a re-analysis of the deposited data

Results flagged for a closer look

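The following log2 differences, response in BAT minus response in WAT, passed limma's interaction test and were picked out because the depots differed. They are tests of one set of 16 libraries, and the EGCG and day comparisons share control libraries.

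For EGCG on day 4 the differences were 0.57 for Hoxa10 and 0.66 for Hoxc9, and -0.46 for Hoxb6, -0.39 for Hoxb4, -0.50 for Hoxd9 and -0.44 for Hoxd3. The 4 calls below 0 were lost after quantile normalization. In replicate 3 of BAT day 4 Hoxd9 did not fall with EGCG. The value of Hoxa10 rests on its fall in WAT, since BAT held 0 reads in day 4 controls and 1 with EGCG, under the floor of 3 reads. For EGCG on day 8 they were 1.20 for Hoxc5, 0.86 for Hoxb9, 0.74 for Hoxc8, 0.50 for Hoxc6, 0.45 for Hoxc13, 0.40 for Hoxc4 and 0.35 for Hoxb4, and -0.38 for Hoxc10. The value of Hoxc10 was above 0 in a fit of both tables and by voom, and BAT held 1 and 4 reads of it in day 8 controls and EGCG.

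For day 8 against day 4 in controls all 12 were below 0. They were -0.98 for Hoxc8, -0.96 for Hoxb6, -0.94 for Hoxc6, -0.85 for Hoxb9, -0.74 for Hoxa7, -0.71 for Hoxa6, -0.64 for Hoxb4, -0.63 for Hoxd8, -0.57 for Hoxd3, -0.46 for Hoxb3, -0.40 for Hoxc4 and -0.39 for Hoxd9. Hoxc6 and Hoxc8 rose in WAT (0.44 and 0.51) and fell in BAT (-0.50 and -0.47).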

How the results depend on the processing

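Of the single-gene values under other settings, 4059 kept direction and side of the threshold, 320 lost the call and 3 reversed. The reversals were Hoxa5 for day 8 against day 4 in WAT with EGCG (-0.10 with both tables) and Hoxc10 for the day 8 EGCG difference between depots (0.051 with both tables, 0.18 by voom, the latter chosen after seeing the data); the cause was not tested. Counts of called members moved by over 1.5 times as follows. With a filter of 5 FPKM, which left 11 members, depot counts were 11 and 10 on day 4 (control, EGCG) and 8 and 9 on day 8, EGCG counts were 9 on day 8 in WAT, then 3 and 10 on the 2 days in BAT, day counts were 9 in WAT with EGCG, 7 in BAT controls and 9 in BAT with EGCG, and the day 4 EGCG difference between depots had 3. With both tables, the library dominated by 5 genes included, the depot count in day 8 controls was 11, EGCG counts were 2 and 5 in WAT (day 4, day 8) and 4 in BAT day 4, day counts were 5 in WAT controls, 7 in WAT with EGCG and 6 in BAT controls, and the differences between depots were 0 for EGCG on day 4 (4 at an unadjusted p under 0.05, and 3 by voom) and 4 for day in controls. Both tables without that library, or with the 5 genes left out, gave 17 for EGCG in WAT day 4. With no filter the EGCG differences between depots had 3 (day 4) and 5 (day 8) and the median depot share was 39.3%; median-ratio scaling gave 3 and 4, and quantile normalization 2 and 4.

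Leaving out each library in turn gave depot counts of 21 to 22 (day 4 control), 17 to 21 (day 4 EGCG), 13 to 18 (day 8 control) and 16 to 21 (day 8 EGCG); EGCG counts of 6 to 12 and 10 to 14 in WAT and 6 to 8 and 14 to 17 in BAT; day counts of 7 to 9 and 13 to 18 in WAT and 9 to 13 and 15 to 20 in BAT; differences between depots of 2 to 7 and 3 to 6 for EGCG and 8 to 11 for day; and a depot share of 62.6 to 65.2%. The day 4 EGCG difference fell to 2 without WAT day 4 control replicate 1 or BAT day 4 EGCG replicate 2, and to 3 without WAT day 4 EGCG replicate 1 or 2, BAT day 4 control replicate 1 or BAT day 4 EGCG replicate 1. The day 8 difference fell to 3 without BAT day 8 EGCG replicate 2, to 4 without BAT day 8 EGCG replicate 1 or BAT day 8 control replicate 1, and to 5 without any WAT day 4 library, WAT day 8 EGCG replicate 2 or BAT day 8 control replicate 2.

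Replicate numbers did not pair the samples (correlation of deviations -0.079 to 0.081 over 28 pairs of groups). With the replicate block the day 8 EGCG difference between depots had 5 members, and no other count moved by over 1.5 times. A planned edgeR count test was not run, since the deposited values are FPKM; voom on the recovered reads took its place.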
